A study of Mus musculus with 30 samples.

Results

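Gene expression was compared between CD4 single-positive thymocytes (CD4 SP, which carry CD4 and have lost CD8) and double-positive thymocytes (DP, which carry both CD4 and CD8) of wild type mice. The members are the 6 libraries labelled wild type among the thymus DP and CD4 SP libraries, out of 30 libraries in the series: CD4 SP cells of animals 15, 18 and 24, and DP cells of the same 3 animals, joined by the animal number in the column names. All 6 came from C57BL/6 mice by the labels, with no Cre or floxed allele named, and age and sex are not in the labels. A further 6 libraries of the table, CD4 SP and DP cells of animals 14, 17 and 23, carry the genotype CD4-Cre+ PRMT5fl/fl (CKO), in which Cre driven by the CD4 gene's regulatory elements deletes Prmt5 from about the DP stage. The CKO libraries appear only where the same contrast is set beside the wild type one. Cells were stained and sorted by flow cytometry, and poly(A) RNA was sequenced in bulk. Replicates are separate animals.

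Thymocytes that have assembled both chains of the T cell receptor pass through the DP stage, at which Rag1 and Rag2 still cut the alpha chain locus and most cells are small and resting. Cells whose receptor binds self peptide on MHC weakly survive, shut off recombination, commit to the CD4 or the CD8 lineage, and move from cortex to medulla. There they mature, regain the ability to divide and respond to cytokines, and leave for the blood along a gradient of sphingosine-1-phosphate.

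Total counts ran from 14713256 to 17867389 in the CD4 SP libraries and from 13032992 to 18576401 in the DP libraries. Levels are given as CPM, the counts of a gene scaled to a common library total after TMM scaling of the 6 libraries, always in the order of animals 15, 18 and 24. A log2 fold change is CD4 SP over DP with its standard error (SE), from a fit with the animal as a block, and a gene was called at an adjusted p under 0.05 by edgeR's quasi-likelihood test. Ddx3y, a Y-linked gene, was at 1.06, 167 and 3.13 CPM in CD4 SP libraries and at 1.07, 162 and 3.96 CPM in DP libraries, so animal 18 was male and both of its libraries carried the signal. Prmt5 was at 58.2, 64.3 and 68.4 CPM in CD4 SP libraries, against 66.4, 59.9 and 70 CPM in DP libraries, and the groups overlapped (log2 fold change -0.04 ± 0.11 SE, adjusted p = 0.79).

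The labels were first checked against defining markers. Ccr7, the chemokine receptor that draws maturing thymocytes into the medulla, had 408, 553 and 301 CPM in CD4 SP libraries, against 7.29, 6.22 and 9.82 CPM in DP libraries. Klf2, a transcription factor needed for thymic exit, had 163, 222 and 196 CPM in CD4 SP libraries, against 39.8, 66.6 and 57.6 CPM in DP libraries. Both markers of mature cells were therefore higher in the CD4 SP library of every animal. Cd8a, the CD8 alpha chain, had 1248, 1109 and 1544 CPM in CD4 SP libraries, against 2661, 2607 and 2738 CPM in DP libraries. Rag1, the recombinase of the DP stage, had 1128, 715 and 1772 CPM in CD4 SP libraries, against 3246, 3119 and 4027 CPM in DP libraries. Both markers of DP cells were lower in CD4 SP libraries without being near 0 there. Cd4 itself had 1060, 1010 and 1277 CPM in CD4 SP libraries, against 1687, 1589 and 1667 CPM in DP libraries, so its mRNA was lower in the population sorted for CD4 alone. Cd3e, a chain of the receptor complex on all these cells, had 386, 399 and 413 CPM in CD4 SP libraries and 420, 406 and 467 CPM in DP libraries, with overlapping groups. In bulk samples fewer cells of a type and less RNA per cell cannot be told apart, and the part of DP cells in the CD4 SP libraries in the results was not tested.

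Of 21983 genes in the table, 11826 had enough counts to be tested, and 5073 of them (42.9%) were called. In CD4 SP, 2717 genes were higher (23%) and 2356 were lower (19.9%), and the median log2 fold change over all genes tested was 0.00312. The numbers in both directions were close, while changes upward reached further. Called genes that were higher had a median log2 fold change of 0.742, and 391 of them passed 2. Called genes that were lower had a median of -0.552, and 12 of them lay below -2. In 4706 of the called genes the 3 CD4 SP values did not overlap the 3 DP values, beside 6141 (51.9%) of all genes tested. Of the called genes 5011 changed in the same direction in all 3 animals. The calls rest on these same animals, so that count is not separate support. The same contrast was also fitted together with the CKO libraries, over all 12 libraries of the table. Of 12216 genes tested, that fit called 665 higher and 96 lower in wild type CD4 SP. Counts of list members called over 12 libraries are to be read beside these numbers. That fit shares its spread with the CKO libraries, whose common biological coefficient of variation was 36.6%, against 10.4% for the wild type libraries alone.

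**Figure D1:**
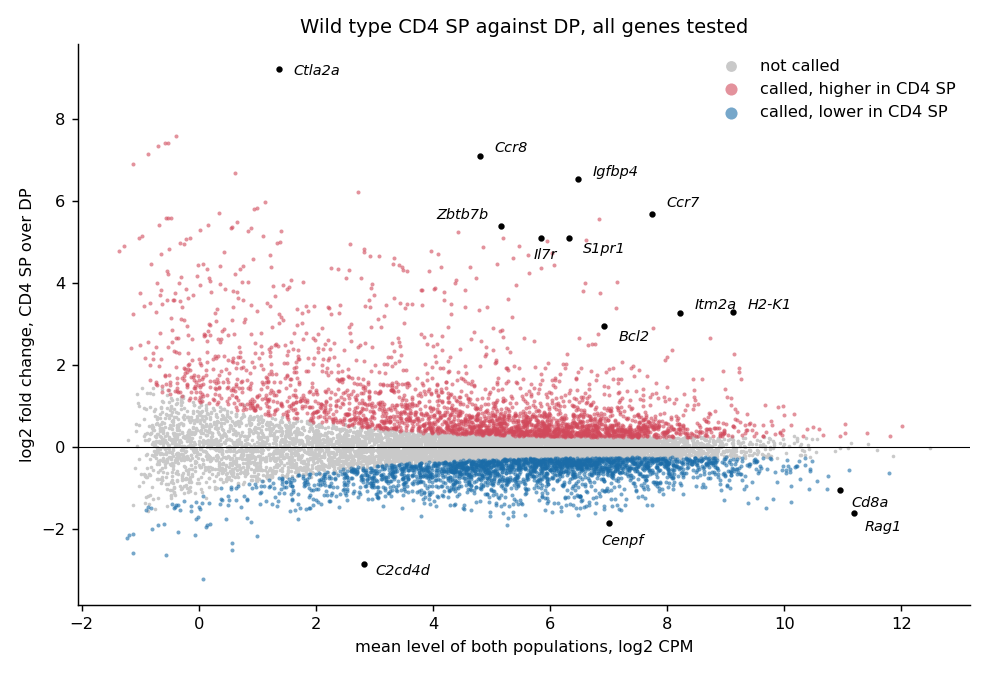
Log2 fold change, CD4 SP over DP, of each of the 11826 genes tested (vertical axis) against its mean level over both populations in log2 CPM (horizontal axis); each point is a gene, red where called higher in CD4 SP, blue where called lower, grey where not called. Called genes reach 9.22 upward and -3.22 downward, and the abundant genes that fell, Rag1 and Cd8a, sit at the lower right. For genes at 0 counts in every DP library, such as Ctla2a, the height is a fitted value and only a lower bound of the fold is measured.

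The 12 genes that rose most, of those reaching 5 CPM in 1 of the populations, were Ctla2a, Ccr8, Igfbp4, St8sia6, Ccr7, Samhd1, Zbtb7b, Fasl, Izumo1r, Lfng, Il7r and S1pr1. They include receptors for chemokines, interleukin-7 and sphingosine-1-phosphate and the CD4 lineage factor Zbtb7b. Igfbp4, which encodes a secreted binding protein for insulin-like growth factors, had 165, 207 and 156 CPM in CD4 SP libraries, against 0.96, 1.15 and 3.37 CPM in DP libraries (log2 fold change 6.54 ± 0.24 SE, adjusted p = 2.5e-14). Ctla2a, which encodes a cysteine protease inhibitor, had 2.39, 10.7 and 2.45 CPM in CD4 SP libraries and was at 0 in all 3 DP libraries. Against a floor of 3 counts per DP library it was at least 27.7-fold higher, a bound that fell to 14.7-fold without animal 18. Its count may hold reads of a close paralog. St8sia6, a sialyltransferase gene, had 15.1, 13.8 and 10.2 CPM in CD4 SP libraries, against 0, 0.153 and 0.326 CPM in DP libraries.

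The 12 genes that fell most were C2cd4d, Pif1, Cenpf, Hmmr, Kif2c, Parpbp, Pimreg, Aspm, Ccnb1, Rag1, Rag2 and Cenpe. Rag1 and Rag2 are the recombinase, and most of the others are known for roles in mitosis or in DNA repair. C2cd4d had 1.59, 0.985 and 2.79 CPM in CD4 SP libraries, against 11.8, 13 and 12.4 CPM in DP libraries (log2 fold change -2.84 ± 0.25 SE, adjusted p = 1.7e-08). The DNA helicase gene Pif1 had 17.5, 11.5 and 19.9 CPM in CD4 SP libraries, against 48.8, 65.1 and 66.6 CPM in DP libraries (log2 fold change -1.90 ± 0.15 SE, adjusted p = 4.9e-09). In both genes the groups were far apart in every animal.

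**Figure D2:**
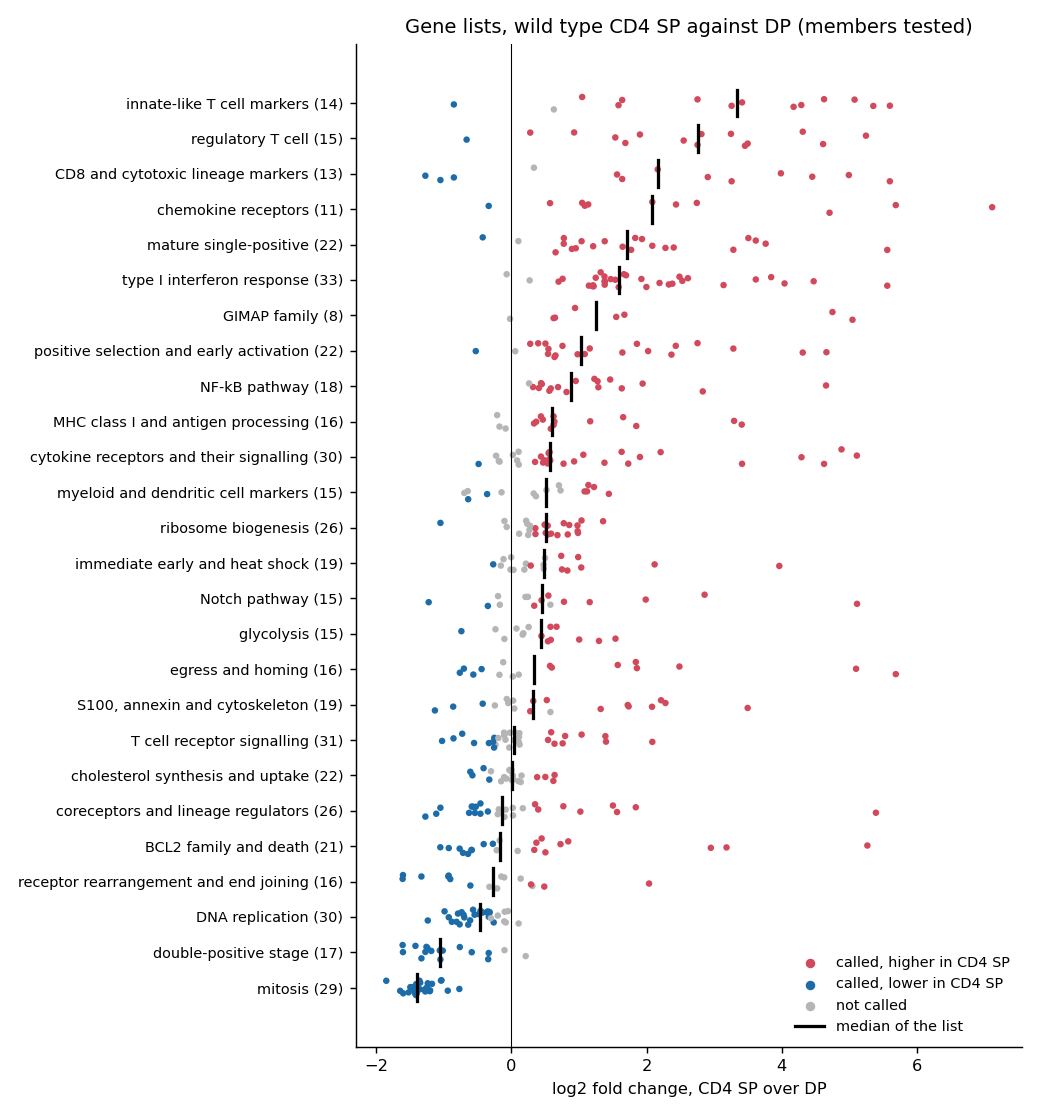
Log2 fold change, CD4 SP over DP, of the tested members of 26 gene lists; each point is a gene, coloured by its call as in the legend, the black bar is the median of the list, and the number of members tested is in brackets. All 29 mitosis genes lie left of 0, 31 of 33 interferon response genes are called to the right, and the T cell receptor signalling and cholesterol lists straddle 0.

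Genes of the DP stage fell together. Of 17 genes tested in that list, 15 were lower and 0 higher in CD4 SP, with a median log2 fold change of -1.06, beside 0.00312 for all genes. Rag1 (mouse GRCm38, chr2:101638252-101649532) fell by 1.61 on the log2 scale (SE 0.14, adjusted p = 1.3e-08). Rag2, its partner in the recombinase and its neighbour (chr2:101624712-101632528), had 19.6, 15.1 and 19.6 CPM in CD4 SP libraries, against 46.2, 52.5 and 67 CPM in DP libraries (log2 fold change -1.60 ± 0.13 SE, adjusted p = 6.0e-09). Dntt, the polymerase that adds untemplated bases at joints, had 555, 508 and 864 CPM in CD4 SP libraries, against 1488, 1505 and 1737 CPM in DP libraries (log2 fold change -1.33 ± 0.12 SE). The CD4 SP library of animal 24 was the highest of its group for Rag1 and for Dntt, and the DP library of that animal was also the highest of its own. Ptcra, the pre-receptor alpha chain of an earlier stage, had 13.8, 9.9 and 13.9 CPM in CD4 SP libraries, against 22.7, 24.3 and 31.5 CPM in DP libraries (log2 fold change -1.06 ± 0.14 SE). Aqp11, a water channel gene, fell by 1.42 on the log2 scale, and Arpp21, a phosphoprotein gene known as a DP marker, by 1.02. Plxnd1, the guidance receptor whose loss keeps DP cells from moving correctly to the medulla in mice, fell by 0.76. Ccr9, the receptor for the thymic chemokine CCL25, had 671, 611 and 675 CPM in CD4 SP libraries, against 854, 747 and 873 CPM in DP libraries, a smaller change (log2 fold change -0.34 ± 0.10 SE, adjusted p = 9.5e-03). Without animal 15 its log2 fold change was -0.33 and it was not called (adjusted p = 0.102). In the fit over 12 libraries 0 of the 17 genes were called, where only 96 of 12216 genes tested were lower.

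The level kept in CD4 SP differed between animals. On the scale of the 6 libraries, the CD4 SP level of these 17 genes had a median of 48.4% of the DP level in animal 15, 38.7% in animal 18 and 56.4% in animal 24. Scaled over 12 libraries, animal 24 kept the most for 11 of the 17 genes and animal 18 the least for 13 of them. The summed level of the list was 8256, 7090 and 10389 CPM in CD4 SP libraries, against 16045, 15427 and 17134 CPM in DP libraries. The mature single-positive list ran in the other order: the median ratio of its 22 genes was 443% of DP in animal 18, 313% in animal 15 and 211% in animal 24. Several other rising lists, described below, shared that order, and some did not. In animals 15, 18 and 24 the type I interferon response list had medians of 279.4%, 411.1% and 251.6%. The GIMAP family had 259%, 323% and 192.3%, and the NF-kB list 175.9%, 221.6% and 171.8%. The egress and homing list, at 125.8%, 123.9% and 128.5%, had another order. So did the positive selection list, at 205.6%, 192.3% and 206.9%, and the chemokine receptor and innate-like lists. With 3 animals these orders are descriptions, and their part in the contrast was not tested.

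Of 16 recombination and end joining genes tested, 7 were lower (43.75%) and 3 higher (18.75%) in CD4 SP. Their median log2 fold change was -0.27. Of all genes tested, 19.9% were lower and 23% higher, so the share of higher members was no larger than that of all genes. Hmgb1, a DNA-bending cofactor of the recombinase, had 363, 320 and 387 CPM in CD4 SP libraries, against 676, 688 and 667 CPM in DP libraries (log2 fold change -0.93 ± 0.10 SE, adjusted p = 4.1e-07). Rag1, Rag2 and Dntt, described above, were among the other lower members, and 6 members were not called. With the CKO libraries fitted too, 0 were lower and 1 higher.

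The coreceptor and lineage list went both ways, with 8 of 26 higher (30.77%), 11 lower (42.31%) and a median of -0.15. Of all genes tested, 23% were higher and 19.9% lower. Zbtb7b (chr3:89377644-89393673), which encodes ThPOK, the factor that fixes the CD4 lineage, had 67.8, 61.3 and 80.4 CPM in CD4 SP libraries, against 0.791, 1.07 and 3.2 CPM in DP libraries (log2 fold change 5.40 ± 0.22 SE, adjusted p = 9.8e-14). Animal 24 had the highest value in both populations. Runx3, the factor of the CD8 lineage, was also higher, at 63.2, 70.3 and 61.3 CPM in CD4 SP libraries, against 19.5, 24.6 and 21.9 CPM in DP libraries (log2 fold change 1.56 ± 0.12 SE, adjusted p = 1.2e-09). Tox, a nuclear factor needed for CD4 lineage development, had 203, 188 and 145 CPM in CD4 SP libraries, against 60.9, 63.4 and 62.8 CPM in DP libraries (log2 fold change 1.5 ± 0.11 SE). Gata3, which acts upstream of Zbtb7b, rose by only 0.40 on the log2 scale (SE 0.10, adjusted p = 2.5e-03), with 177, 174 and 176 CPM in CD4 SP libraries and 130.5, 132 and 138 CPM in DP libraries. The factors tied to CD4 commitment thus rose by very different amounts, and the CD8 factor rose as well.

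Cd8b1, the CD8 beta chain, had 460, 441 and 703 CPM in CD4 SP libraries, against 1202, 1203 and 1396 CPM in DP libraries (log2 fold change -1.27 ± 0.11 SE, adjusted p = 1.5e-08), and Cd8a fell by 1.05. Bcl6, a repressor, had 69.6, 66.7 and 81.6 CPM in CD4 SP libraries, against 145, 163 and 162 CPM in DP libraries (log2 fold change -1.11 ± 0.10 SE). Of the HMG-box pair that acts at DP and CD4 stages, Lef1 rose by 1.02 (SE 0.10) and Tcf7 fell by 0.63 (SE 0.11). Tcf7 had 2602, 2404 and 3376 CPM in CD4 SP libraries, against 4031, 4197 and 4593 CPM in DP libraries. Myb, a factor of DP cell survival, fell by 0.54. Satb1 and Ets1 were not called: Satb1 had 3573, 3065 and 3710 CPM in CD4 SP libraries and 3951, 3865 and 4049 CPM in DP libraries (adjusted p = 0.14), and Ets1 had 1884, 1777 and 1788 CPM in CD4 SP libraries and 1950, 1876 and 1950 CPM in DP libraries (adjusted p = 0.54). Over all 12 libraries 5 members were higher and 1 lower, and Zbtb7b, Runx3, Tox, Lef1 and Bcl6 were still called while Cd4, Cd8a, Cd8b1, Gata3, Tcf7 and Myb were not.

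**Figure D3:**
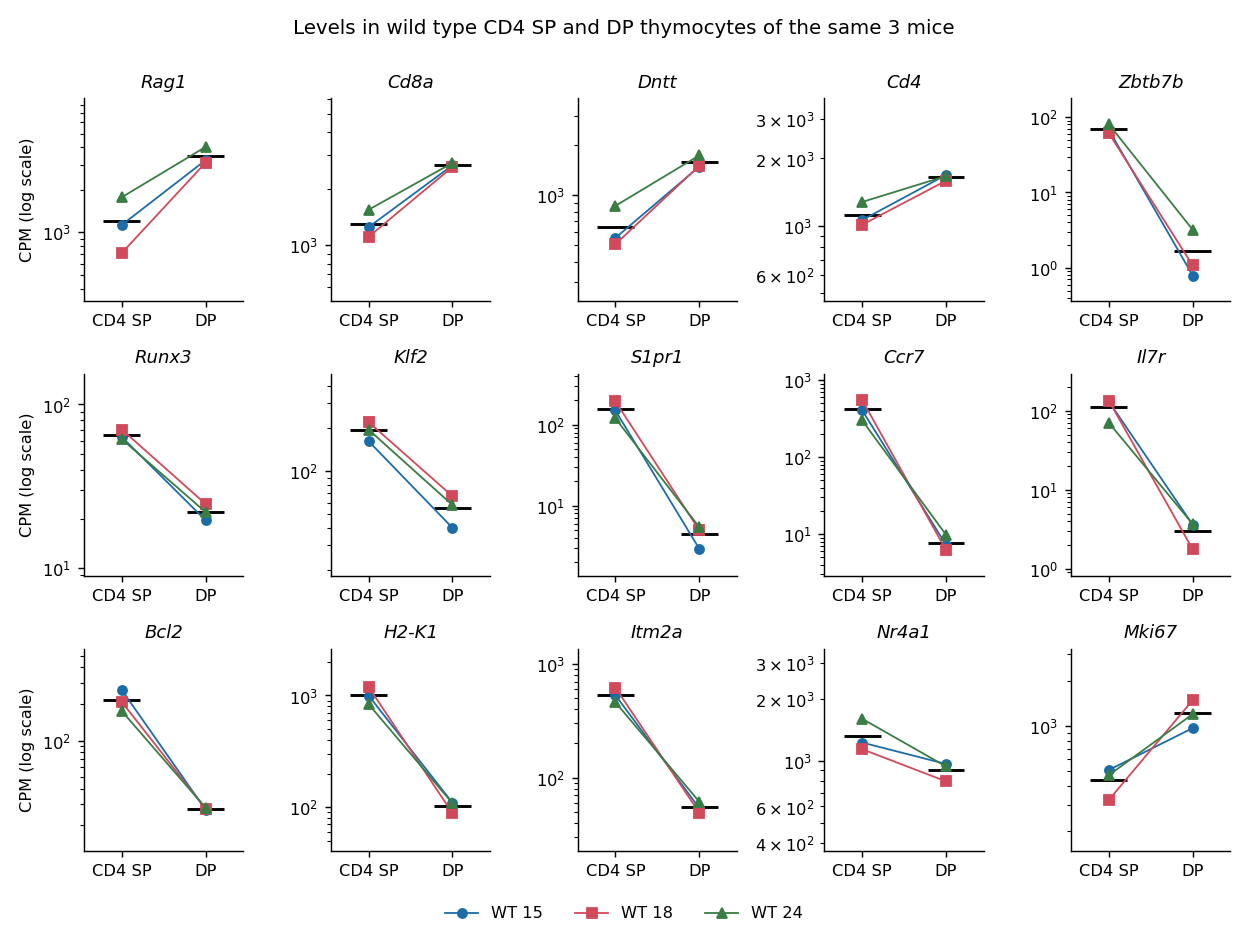
Level in CPM (log axis) of 15 genes in CD4 SP (left) and DP (right) libraries; each line joins the libraries of 1 animal and the bar is the mean of 3. Rag1, Cd8a, Dntt, Cd4 and Mki67 slope upward to DP, with Rag1 at 715 to 1772 CPM in CD4 SP and 3119 to 4027 CPM in DP, and the other 10 genes slope downward.

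Genes of thymic exit and homing rose in part, with 8 of 16 higher (50%), 4 lower (25%) and a median of 0.34. Of all genes tested, 23% were higher and 19.9% lower. S1pr1 (chr3:115710433-115715055), the sphingosine-1-phosphate receptor through which mature thymocytes leave, had 150, 195 and 120 CPM in CD4 SP libraries, against 2.94, 4.99 and 5.43 CPM in DP libraries (log2 fold change 5.10 ± 0.17 SE, adjusted p = 1.2e-14). Ccr7 rose by 5.69 (SE 0.20, adjusted p = 1.2e-14), and Klf2 by 1.84 (SE 0.11, adjusted p = 2.6e-11). Itgb7, an integrin chain for homing to gut, had 166, 181 and 160 CPM in CD4 SP libraries, against 35.4, 22.5 and 33.4 CPM in DP libraries (log2 fold change 2.49 ± 0.14 SE). Foxo1, which activates Klf2 and Il7r, rose by 1.57 (SE 0.11). Cd69, which is induced by receptor signals and holds S1PR1 inside the cell, rose as well, at 187, 170 and 130 CPM in CD4 SP libraries, against 52.1, 39 and 42.5 CPM in DP libraries (log2 fold change 1.86 ± 0.11 SE). Transcripts of both the retention marker and the exit receptor were thus higher in CD4 SP libraries. When the 12 libraries were fitted together, 5 were higher and 0 lower.

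Of 22 mature single-positive genes tested, 20 were higher and 1 lower (0 without animal 15), with a median of 1.71. Itm2a (chrX:107397195-107403360), a membrane protein gene induced at positive selection, had 533, 622 and 462 CPM in CD4 SP libraries, against 54, 49.3 and 61.5 CPM in DP libraries (log2 fold change 3.29 ± 0.13 SE, adjusted p = 7.9e-14). Cd53, a tetraspanin gene, had 241, 250 and 157 CPM in CD4 SP libraries, against 17.2, 11.4 and 18.1 CPM in DP libraries (log2 fold change 3.76 ± 0.17 SE). Ms4a4b, which encodes a membrane protein of mature T cells, had 40.4, 41.3 and 27.5 CPM in CD4 SP libraries, against 3.5, 2.76 and 3.09 CPM in DP libraries (log2 fold change 3.51 ± 0.17 SE). Cd52, a glycoprotein gene of mature lymphocytes, rose by 1.04 (SE 0.12). For Cd53 and Ms4a4b the CD4 SP library of animal 24 was the lowest. Fitted with the CKO libraries, 11 were higher and 0 lower.

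Genes induced by selection signals rose, with 20 of 22 higher, 1 lower and a median of 1.03. Nr4a3, an orphan nuclear receptor gene induced by receptor signals, had 529, 476 and 364 CPM in CD4 SP libraries, against 109, 77.4 and 78.7 CPM in DP libraries (log2 fold change 2.37 ± 0.11 SE, adjusted p = 8.0e-13). Its relative Nr4a1 changed less, at 1232, 1144 and 1610 CPM in CD4 SP libraries, against 968, 796 and 941 CPM in DP libraries (log2 fold change 0.55 ± 0.11 SE). Tnfrsf9, the co-stimulatory receptor 4-1BB, had 21.4, 23.4 and 22.6 CPM in CD4 SP libraries, against 1.13, 0.691 and 1.47 CPM in DP libraries (log2 fold change 4.31 ± 0.22 SE). Irf4, a transcription factor scaled to receptor signal strength, rose by 2.43 (SE 0.12), and Nab2, a corepressor of EGR proteins, by 1.64 (SE 0.15). Cd5 and Cd6, which damp receptor signalling, rose by 0.76 and 0.40, and Egr1 by 0.65. Id3, an inhibitor of E proteins, was the lower member, at 75.8, 98.7 and 126 CPM in CD4 SP libraries and 136, 145 and 143 CPM in DP libraries (log2 fold change -0.53 ± 0.12 SE), and was not called without animal 15 (adjusted p = 0.0556). Egr2 was listed at 0 in every wild type library, so it was not tested. In the fit over 12 libraries 11 were higher and 0 lower.

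Of 31 components of receptor signalling, 9 were higher (29.03%), 8 lower (25.81%) and 14 not called, with a median of 0.04, shares near the 23% and 19.9% of all genes tested. Cd2, an adhesion receptor, had 230, 266 and 231 CPM in CD4 SP libraries, against 58.8, 46.1 and 67.5 CPM in DP libraries (log2 fold change 2.09 ± 0.13 SE). The Src family kinase gene Fyn rose by 1.40 (SE 0.10), the ubiquitin ligase gene Cblb by 1.39 (SE 0.11) and Nfatc2 by 1.04 (SE 0.11). The count of lower members was 3 without animal 15, 5 without animal 18, 5 without the block and 2 in the fit over 12 libraries, where 4 were higher.

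The NF-kB list moved one way, with 17 of 18 higher, 0 lower and a median of 0.88. Bcl3, an atypical inhibitor protein that acts in the nucleus, had 16.9, 14.6 and 12.2 CPM in CD4 SP libraries, against 0.282, 0.461 and 0.923 CPM in DP libraries (log2 fold change 4.66 ± 0.30 SE, adjusted p = 1.0e-10). Relb, the subunit of the alternative pathway, had 62.1, 80.5 and 43.6 CPM in CD4 SP libraries, against 8.24, 8.6 and 8.41 CPM in DP libraries (log2 fold change 2.83 ± 0.15 SE), and its partner Nfkb2 rose by 1.46 (SE 0.12). Rel, the subunit c-Rel, had 284, 209 and 155 CPM in CD4 SP libraries, against 61.9, 52.2 and 50.1 CPM in DP libraries (log2 fold change 1.94 ± 0.12 SE). For Rel the CD4 SP values of the 3 animals differed by more than the DP values, and every one lay above them. With the CKO libraries fitted too, 7 were higher, without Rel. Of 19 immediate early and heat shock genes, 8 were higher and 1 lower, with a median of 0.48. The lower member was not called without the block, without animal 15, without animal 18 or with the filter of 5 CPM in 3 libraries. Fosl2 rose by 2.12 (SE 0.11), Fosb by 1.03 (SE 0.10) and Junb by 0.99 (SE 0.11), and Atf3 had 4.38, 7.39 and 3.54 CPM in CD4 SP libraries, against 0.452, 0.0768 and 0.326 CPM in DP libraries. Over all 12 libraries 4 were higher and 0 lower.

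Cytokine receptors and their signalling genes rose in 22 of 30 cases, with 1 lower and a median of 0.56. Il7r (chr15:9506159-9529941), the interleukin-7 receptor that DP cells switch off and mature cells need to survive, had 131, 135 and 70.7 CPM in CD4 SP libraries, against 3.61, 1.77 and 3.69 CPM in DP libraries (log2 fold change 5.11 ± 0.22 SE, adjusted p = 1.7e-13). Il6ra, the interleukin-6 receptor, had 59.8, 57.9 and 50.8 CPM in CD4 SP libraries, against 1.69, 1.69 and 2.23 CPM in DP libraries (log2 fold change 4.89 ± 0.17 SE). Il2rb, a receptor chain for interleukin-2 and a related cytokine, had 82.3, 91.5 and 64 CPM in CD4 SP libraries, against 4.69, 1.84 and 2.88 CPM in DP libraries (log2 fold change 4.63 ± 0.19 SE). Cish, a feedback inhibitor induced by STAT5, had 28.2, 33.8 and 25 CPM in CD4 SP libraries, against 1.58, 0.921 and 1.74 CPM in DP libraries (log2 fold change 4.29 ± 0.21 SE). Socs1, another such inhibitor, was not called. It had 241, 272 and 276 CPM in CD4 SP libraries and 288, 290 and 320 CPM in DP libraries (adjusted p = 0.13). Socs3 was called higher with overlapping groups (log2 fold change 0.44 ± 0.15 SE, adjusted p = 0.021), and was not called by DESeq2 (adjusted p = 0.0512), without animal 18 (adjusted p = 0.244) or without animal 24 (adjusted p = 0.0813). Il4ra rose by 0.47 (SE 0.10). When the 12 libraries were fitted together, 11 were higher and 0 lower.

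Of 11 chemokine receptors tested, 10 were higher and 1, Ccr9, was lower, with a median of 2.09. Ccr8 (chr9:120092133-120094906), a receptor of some activated and regulatory T cells, had 42.3, 89.2 and 35.4 CPM in CD4 SP libraries, against 0.169, 0.537 and 0.434 CPM in DP libraries (log2 fold change 7.12 ± 0.22 SE, adjusted p = 1.1e-14). Ccr4, which like Ccr7 guides selected thymocytes into the medulla, had 55.7, 71.4 and 37.1 CPM in CD4 SP libraries, against 11.1, 10.4 and 16 CPM in DP libraries (log2 fold change 2.09 ± 0.20 SE). Animal 18 was the highest in CD4 SP for Ccr7, Ccr8 and Ccr4. Cxcr4, the receptor for stromal CXCL12, rose by 0.57 (SE 0.10), with 373, 372 and 312 CPM in CD4 SP libraries and 218, 256 and 235 CPM in DP libraries. Cx3cr1 was low in both, at 2.32, 3.45 and 1.63 CPM in CD4 SP libraries and 0.339, 0.307 and 0.38 CPM in DP libraries. With a filter of 5 CPM in 3 libraries, 4 of the receptors were still tested and higher, and in the fit over 12 libraries 5 were higher.

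Survival genes went both ways: of 21 tested, 9 were higher and 9 lower, with a median of -0.17. Bcl2 (chr1:106538176-106714290), the inhibitor of cell death of mature T cells, had 260, 208 and 175 CPM in CD4 SP libraries, against 26.8, 27.3 and 27.9 CPM in DP libraries (log2 fold change 2.95 ± 0.12 SE, adjusted p = 1.7e-13). Bcl2l1, whose product Bcl-xL protects DP cells, went the other way, at 160, 160 and 206 CPM in CD4 SP libraries, against 260, 267 and 289 CPM in DP libraries (log2 fold change -0.64 ± 0.10 SE). Bcl2a1d, another protective member, had 3.98, 6.68 and 3.81 CPM in CD4 SP libraries, against 0.395, 0.384 and 0.706 CPM in DP libraries, and shares sequence with its paralogs. Among the death-promoting members, Bcl2l11 (Bim) rose by 0.50 (SE 0.10) and Bbc3 (Puma) by 0.73 (SE 0.10), whereas Bmf fell by 0.41 (SE 0.11) and was not called without animal 15 (adjusted p = 0.143). Fasl, the ligand of the death receptor Fas, had 5.25, 6.57 and 3.67 CPM in CD4 SP libraries, against 0.113, 0.153 and 0.109 CPM in DP libraries. Fitted with the CKO libraries, 3 were higher and 1 lower, and Bcl2 was among those called.

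The GIMAP family, GTPases of lymphocyte survival whose genes lie together on chromosome 6, had 7 of 8 members higher, 0 lower and a median of 1.25. Gimap4 had 198, 246 and 128 CPM in CD4 SP libraries, against 4.97, 3.99 and 7.38 CPM in DP libraries (log2 fold change 5.05 ± 0.22 SE, adjusted p = 1.9e-13). Gimap3 had 126, 163 and 90.8 CPM in CD4 SP libraries, against 3.9, 4.3 and 5.32 CPM in DP libraries (log2 fold change 4.75 ± 0.17 SE). Gimap6 was high in both, at 992, 1121 and 685 CPM in CD4 SP libraries, against 324, 251 and 289 CPM in DP libraries (log2 fold change 1.67 ± 0.13 SE), and Gimap7 rose by 1.55. Neighbours in 1 gene cluster thus differed widely in the size of their change, with the limit that reads of similar family members may be split by the counting. In the fit over 12 libraries 4 were higher. The Notch list had 8 of 15 higher, 2 lower (1 without animal 15) and a median of 0.45. Lfng, the glycosyltransferase that tunes Notch receptors, had 67.5, 81.5 and 64.7 CPM in CD4 SP libraries, against 1.58, 1.92 and 2.55 CPM in DP libraries (log2 fold change 5.12 ± 0.17 SE, adjusted p = 1.1e-14). Hey1, a target gene of Notch, rose by 2.86 (SE 0.15), the coactivator gene Maml2 by 1.99 (SE 0.13) and Dtx1 by 1.16 (SE 0.13). With the CKO libraries fitted too, 3 were higher and 0 lower.

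Genes of the type I interferon response were higher in CD4 SP almost as a block, with 31 of 33 called higher, 0 lower and a median of 1.59. Oas2, an antiviral oligoadenylate synthetase, had 35.1, 55.3 and 40.5 CPM in CD4 SP libraries, against 2.2, 3.46 and 3.37 CPM in DP libraries (log2 fold change 3.85 ± 0.16 SE, adjusted p = 1.1e-13). Its relative Oasl2 had 16.4, 25.8 and 14.8 CPM in CD4 SP libraries, against 0.791, 0.921 and 0.76 CPM in DP libraries (log2 fold change 4.47 ± 0.22 SE). Samhd1, a nucleotide-degrading restriction factor, had 235, 266 and 169 CPM in CD4 SP libraries, against 4.12, 2.46 and 7.06 CPM in DP libraries (log2 fold change 5.56 ± 0.24 SE). Ifi27l2a, an interferon-induced membrane protein gene, rose by 3.62 (SE 0.22). Animal 18 was the highest in CD4 SP for all 4, and the summed level of the list was 1739, 2052 and 1516 CPM in CD4 SP libraries. Samhd1 and Ifi27l2a also stand in the mature list. Over all 12 libraries 20 were higher.

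MHC class I genes rose beside them, with 13 of 16 higher, 0 lower and a median of 0.60. H2-K1 (chr17:33996012-34000619), a classical heavy chain, had 998, 1195 and 837 CPM in CD4 SP libraries, against 109, 88.2 and 108 CPM in DP libraries (log2 fold change 3.30 ± 0.14 SE, adjusted p = 1.3e-13). H2-D1 had 855, 1143 and 829 CPM in CD4 SP libraries, against 273, 234 and 271 CPM in DP libraries (log2 fold change 1.85 ± 0.12 SE), and the 2 heavy chains share sequence with each other and with nonclassical copies. B2m, the light chain, had 551, 584 and 449 CPM in CD4 SP libraries, against 166, 142 and 197 CPM in DP libraries (log2 fold change 1.66 ± 0.13 SE). Nlrc5, the transactivator of these genes, had 282, 266 and 221 CPM in CD4 SP libraries, against 27.4, 21.1 and 23.6 CPM in DP libraries (log2 fold change 3.41 ± 0.12 SE, adjusted p = 1.2e-14). When the 12 libraries were fitted together, 5 were higher.

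Their promoters were searched for the core of the interferon response element, GAAANNGAA, on both strands, in RefSeq windows of 300 bases (250 before and 50 after a start, GRCm38.p6). The core was found in 2812 of 32851 windows (8.56%), in 826 of 11829 windows of genes tested (6.98%), in 17 of 28 windows of the interferon list (60.7%) and in 3 of 16 windows of the MHC class I list (18.8%). The 28 windows belong to 23 of the 33 interferon genes tested, and the 16 windows to 14 MHC class I genes. Oas2, Oasl2, Samhd1, Ifi27l2a, H2-K1, H2-D1 and Nlrc5, described above, were not among the genes with a match. Some genes of the lists had no window. A match is a description of the letters, not of a bound site. The 150 bases before the start are printed for 3 interferon genes and B2m, chosen because their windows hold a match, with matches in capitals. In order, the stretches are chr4:156200819-156200968 (minus strand), chr5:120777660-120777809 (minus strand), chr19:34640739-34640888 (plus strand) and chr2:122147537-122147686 (plus strand).
Isg15: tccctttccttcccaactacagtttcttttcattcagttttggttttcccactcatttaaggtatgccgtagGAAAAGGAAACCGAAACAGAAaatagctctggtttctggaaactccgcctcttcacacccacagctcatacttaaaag
Oas3: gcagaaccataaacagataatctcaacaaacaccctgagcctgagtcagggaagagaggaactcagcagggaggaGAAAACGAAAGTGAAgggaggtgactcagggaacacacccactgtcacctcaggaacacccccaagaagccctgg
Ifit1: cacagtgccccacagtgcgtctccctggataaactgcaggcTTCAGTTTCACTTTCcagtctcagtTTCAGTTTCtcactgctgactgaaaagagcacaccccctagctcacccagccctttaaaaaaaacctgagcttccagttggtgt
B2m: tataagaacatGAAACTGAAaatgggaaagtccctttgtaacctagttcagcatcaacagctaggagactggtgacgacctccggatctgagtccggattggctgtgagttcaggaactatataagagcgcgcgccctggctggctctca

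In Isg15, which encodes a ubiquitin-like antiviral protein, the 3 matches begin 78, 72 and 66 bases before the start and run into each other. Isg15 had 12.8, 17.8 and 16.1 CPM in CD4 SP libraries, against 4.57, 4.45 and 6.41 CPM in DP libraries (log2 fold change 1.59 ± 0.18 SE). In Oas3 the 2 matches begin 75 and 69 bases before the start, and the gene had 24.2, 35.6 and 26.6 CPM in CD4 SP libraries, against 4.18, 4.84 and 5.7 CPM in DP libraries (log2 fold change 2.53 ± 0.16 SE). In Ifit1, which encodes a protein that binds viral RNA, the 3 matches lie on the other strand and begin 109, 103 and 84 bases before the start. Ifit1 had 13.6, 17.9 and 13.4 CPM in CD4 SP libraries, against 1.35, 1.77 and 1.9 CPM in DP libraries (log2 fold change 3.14 ± 0.21 SE). B2m holds 1 match, 139 bases before the start. The number of matches and the fold did not run in the same order over these 4 genes.

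Mitosis genes fell without exception among those tested: 29 of 29 were lower, with a median of -1.39, and 0 were higher. Mki67, the proliferation marker Ki-67, had 510, 322 and 471 CPM in CD4 SP libraries, against 967, 1483 and 1198 CPM in DP libraries (log2 fold change -1.49 ± 0.16 SE, adjusted p = 2.6e-07). Cenpf, a kinetochore protein gene, had 69.3, 42.1 and 55.8 CPM in CD4 SP libraries, against 165, 240 and 194 CPM in DP libraries (log2 fold change -1.85 ± 0.16 SE). Cdc20, the activator of the anaphase-promoting complex, had 74.3, 61.3 and 95.3 CPM in CD4 SP libraries, against 172, 242 and 248 CPM in DP libraries (log2 fold change -1.52 ± 0.13 SE), and Ccnb1, Ccnb2 and Ube2c fell by 1.65, 1.41 and 1.44. The median CD4 SP level of the list was 50.5% of DP in animal 15, 28.5% in animal 18 and 40.4% in animal 24. Animal 15 had the lowest DP and animal 18 the lowest CD4 SP sums, at 2569, 2053 and 2804 CPM in CD4 SP libraries and 4924, 7132 and 6748 CPM in DP libraries. Kif11 was listed at 0 in every wild type library and was not tested. Fitted with the CKO libraries, 8 were lower.

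DNA replication genes fell less, with 23 of 30 lower, 0 higher and a median of -0.47. Rrm2, a subunit of ribonucleotide reductase, had 110, 101 and 136 CPM in CD4 SP libraries, against 200, 296 and 336 CPM in DP libraries (log2 fold change -1.24 ± 0.12 SE). Cdc45, part of the replicative helicase, fell by 0.99 (SE 0.12), and Mcm10, a replication initiation factor, by 0.88 (SE 0.12). The heptamer GCGGGAA, a form of the E2F site, was searched in the same windows on both strands. It was found in 1511 of all windows (4.6%), in 969 windows of genes tested (8.19%), in 12 of 29 windows of the replication list (41.4%) and in 1 of 26 windows of the mitosis list (3.85%). It overlapped the interferon core in 7 windows. The 150 bases before the start are printed for 3 replication genes whose windows hold it, with the match in capitals, at chr17:56303187-56303336, chr7:102441545-102441694 and chr17:56040266-56040415 (plus strand in each).
Uhrf1: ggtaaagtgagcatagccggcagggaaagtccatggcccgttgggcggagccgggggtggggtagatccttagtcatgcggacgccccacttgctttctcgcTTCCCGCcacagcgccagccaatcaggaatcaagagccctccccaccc
Rrm1: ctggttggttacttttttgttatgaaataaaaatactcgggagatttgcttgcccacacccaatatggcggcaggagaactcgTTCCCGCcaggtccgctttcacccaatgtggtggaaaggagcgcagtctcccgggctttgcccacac
Chaf1a: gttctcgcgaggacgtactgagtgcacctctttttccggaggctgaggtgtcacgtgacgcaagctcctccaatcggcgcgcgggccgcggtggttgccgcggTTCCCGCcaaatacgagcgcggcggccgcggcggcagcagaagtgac

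The match begins 48 bases before the start in Uhrf1, 67 in Rrm1 and 47 in Chaf1a, on the other strand in each, and the other RefSeq window of Uhrf1 held none. Uhrf1, which keeps DNA methylation in place at replication, had 193, 184 and 239 CPM in CD4 SP libraries, against 299.5, 422 and 463 CPM in DP libraries (log2 fold change -0.93 ± 0.11 SE). Rrm1, the partner of Rrm2, had 145, 131 and 177 CPM in CD4 SP libraries, against 193, 261 and 283 CPM in DP libraries (log2 fold change -0.70 ± 0.11 SE). Chaf1a, a histone chaperone gene, had 45.8, 40.5 and 49.1 CPM in CD4 SP libraries, against 59.7, 86.5 and 86.6 CPM in DP libraries (log2 fold change -0.77 ± 0.12 SE). In all 3 genes the DP library of animal 15 was the lowest of its group and still above every CD4 SP library. In the fit over 12 libraries 0 of the 30 replication genes were called, where only 96 of 12216 genes tested were lower.

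Ribosome biogenesis genes rose in 17 of 26 cases, with 1 lower and a median of 0.51. Rrp12, which acts in ribosomal subunit maturation, had 25.5, 25.6 and 25 CPM in CD4 SP libraries, against 10.5, 8.14 and 11.1 CPM in DP libraries (log2 fold change 1.36 ± 0.14 SE). Polr1a, the large subunit of RNA polymerase I, rose by 1.04 (SE 0.12) and Wdr43 by 0.99 (SE 0.11). Wdr12, of the same pathway, was the lower member, at 71.3, 71.6 and 87.8 CPM in CD4 SP libraries, against 152, 166 and 158 CPM in DP libraries (log2 fold change -1.05 ± 0.11 SE, adjusted p = 1.1e-07). With the CKO libraries fitted too, 4 were higher and 1 lower. Of 15 glycolysis genes 8 were higher and 1 lower, with a median of 0.44. The glucose transporter genes Slc2a3 and Slc2a1 rose by 1.30 (SE 0.12) and 1.0 (SE 0.10), and Hk2, the inducible hexokinase, had 29.9, 33.6 and 26.1 CPM in CD4 SP libraries, against 11.8, 9.6 and 9.34 CPM in DP libraries (log2 fold change 1.54 ± 0.14 SE). Pfkp rose by 0.67, and in the fit over 12 libraries 2 of the list were higher and 0 lower.

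Of 22 cholesterol genes 4 were higher (18.18%) and 4 lower (18.18%), with a median of 0.0036, shares near the 23% and 19.9% of all genes tested. Without animal 15 the lower members numbered 1. The synthesis enzymes Cyp51 and Hsd17b7 and the exporter Abcg1 rose by 0.64, 0.50 and 0.38. Over all 12 libraries 0 were called. Of 19 S100, annexin and cytoskeleton genes 10 were higher and 3 lower, with a median of 0.32. Tmsb10, an actin-binding peptide gene, had 825, 1169 and 823 CPM in CD4 SP libraries, against 195, 184 and 192 CPM in DP libraries (log2 fold change 2.28 ± 0.12 SE). Capg, Ahnak and the intermediate filament gene Vim rose by 3.50 (SE 0.20), 2.21 (SE 0.16) and 1.74 (SE 0.12). When the 12 libraries were fitted together, 6 were higher and 0 lower, and Ahnak was not called.

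Markers of rarer T cell lineages of the thymus were also listed, some of which carry CD4 and some of which, such as most gamma delta cells, a sort for CD4 would remove. Regulatory T cell genes were higher in 14 of 15 cases, with 1 lower and a median of 2.76. Foxp3, their defining factor, had 12.3, 14 and 10.2 CPM in CD4 SP libraries, against 2.65, 2.69 and 1.09 CPM in DP libraries (log2 fold change 2.55 ± 0.22 SE, adjusted p = 1.6e-08). Izumo1r, which encodes folate receptor 4, had 36.3, 49 and 40.4 CPM in CD4 SP libraries, against 0.96, 0.537 and 1.63 CPM in DP libraries (log2 fold change 5.25 ± 0.22 SE). Ikzf4, the zinc finger factor Eos, had 18.9, 24.2 and 15.4 CPM in CD4 SP libraries, against 0.678, 0.537 and 1.03 CPM in DP libraries (log2 fold change 4.61 ± 0.25 SE). Some members, such as Tnfrsf9, also stand in the list of selection genes. Fitted with the CKO libraries, 11 were higher and 0 lower.

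Innate-like T cell markers were higher in 12 of 14 cases, with 1 lower and a median of 3.34. Zbtb16, the factor PLZF that defines these cells, had 3.52, 4.1 and 3.26 CPM in CD4 SP libraries, against 0, 0 and 0.217 CPM in DP libraries. Icos had 25.8, 28.2 and 18.4 CPM in CD4 SP libraries, against 4.63, 1.61 and 4.23 CPM in DP libraries (log2 fold change 2.75 ± 0.24 SE), and Il18r1 and Nkg7 rose by 3.41 (SE 0.28) and 3.26 (SE 0.35). The summed level of the list was 155, 165 and 127 CPM in CD4 SP libraries, against 39.7, 25.8 and 41.8 CPM in DP libraries. With the filter of 5 CPM in 3 libraries 3 were higher, since most members were low. Of 13 genes of the CD8 and cytotoxic lineage 9 were higher and 3 lower, with a median of 2.17. Cd7 rose by 4.45 (SE 0.21) and Ctsw, a protease gene of cytotoxic cells, by 2.91 (SE 0.16), while Cd8a and Cd8b1 fell. With the filter of 5 CPM in 3 libraries 3 of these were higher. The part of these cell types in the contrast was not tested.

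Of 12 gamma delta T cell markers listed, 6 had an entry in the counts and 4 were tested. Genes of the receptor itself were not assessed: Trdc and Tcrg-C1 had no entry, and Tcrg-C3 had too few counts. Of the 4 tested, 3 were higher, among them Maf at 27.2, 28.6 and 21.1 CPM in CD4 SP libraries, against 9.26, 10.2 and 10.3 CPM in DP libraries. With the filter of 5 CPM in 3 libraries 1 was higher, and over all 12 libraries 0 were. Cd163l1 and Sox13 stayed under 4 CPM in every library, and Blk was not called. B cell markers were low: of 3 tested, Cd79b was lower, at 5.11, 5.36 and 10.2 CPM in CD4 SP libraries, against 16, 12.5 and 13.6 CPM in DP libraries, and Cd79a and Blnk were not called, while Ms4a1 and Pax5 had too few counts to be tested. Myeloid and dendritic markers summed to 72.1, 101 and 92 CPM in CD4 SP libraries and 90, 84.7 and 98.4 CPM in DP libraries over 15 genes. Of these, 5 were higher (33.33%) and 2 lower (13.33%), beside 23% and 19.9% of all genes tested. Without animal 15, 3 were higher and 0 lower, by DESeq2 3 were higher, with the filter of 5 CPM in 3 libraries 2 were higher, and without the block 1 was lower. Lyz2, the macrophage lysozyme, had 7.9, 11.2 and 9.86 CPM in CD4 SP libraries, against 4.8, 3.46 and 5.26 CPM in DP libraries (log2 fold change 1.08 ± 0.21 SE), and Mpeg1 and Tyrobp rose by 1.12 and 1.44. Cd68, a macrophage marker, was lower, at 6.51, 9.25 and 7.34 CPM in CD4 SP libraries, against 14.1, 11 and 10.9 CPM in DP libraries (log2 fold change -0.64 ± 0.18 SE), and neither Cd68 nor Tyrobp was called without animal 15. Of 16 stromal and erythroid markers 5 could be tested and Pecam1, also present on T cells, was higher by 0.32 (SE 0.10, and not called without animal 15, adjusted p = 0.0663). The other 4 had negative log2 fold changes and were not called, and the median of the 5 was -0.53. Without the block 1 of them was called lower, and without animal 24 also 1. Foxn1, Krt5, Krt8 and Krt14, the defining genes of thymic epithelium, had between 0 and 3 counts in each library.

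The same contrast was then read in the CKO mice, whose libraries share none with the wild type comparison. On a common scale over 12 libraries, Prmt5 was at 41.8, 26.2 and 25.0 CPM in CKO CD4 SP libraries of animals 14, 17 and 23, against 56.9, 64.1 and 68.3 CPM in wild type CD4 SP libraries, and at 31.0, 30.3 and 30.5 CPM in CKO DP libraries, against 65.9, 59.7 and 69.6 CPM in wild type DP libraries. In CKO mice 217 of 11780 genes were higher in CD4 SP (1.84%) and 16 were lower (0.136%), with the animal as a block. These counts moved widely: 710 were higher and 403 lower by DESeq2, 552 and 85 without the block, 1142 and 690 without CKO 14, 144 and 7 without CKO 17, and 176 and 35 without CKO 23. The median SE of a log2 fold change was 0.339 in CKO, against 0.125 in wild type. Of the 2650 genes higher in wild type CD4 SP and tested in CKO, 2357 (88.9%) had the same sign there and 217 were called the same way. Of the 2348 lower, 2217 (94.4%) had the same sign and 16 were called the same way. A direct test of the difference, CKO change minus wild type change, called 0 of 12216 genes (0%) by edgeR's quasi-likelihood test, with 166 at an unadjusted p under 0.05 and a smallest adjusted p of 0.962. DESeq2 with the block, edgeR without it, and the fit without CKO 17 also called 0 genes. Thus no change described above is shown to differ between the genotypes.

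Genes of the DP stage varied widely between the CKO animals. With all 12 libraries on the same scale, CKO animals 14, 17 and 23 kept Rag1 in CD4 SP at 53.6%, 1.10% and 24.6% of its DP level, against 34.2%, 22.9% and 44.2% in wild type animals 15, 18 and 24. For Cd8a the CKO animals kept 82.7%, 1.68% and 34.9%, against 46.2%, 42.6% and 56.6% in the wild type animals. Over the 17 genes of the list the medians were 70.9%, 5.40% and 31.7% in the CKO animals, against 47.7%, 38.7% and 56.6% in the wild type animals. The CD4 SP library labelled CKO 17 therefore stood below all others, and the medians of the wild type animals lay between those of CKO 23 and CKO 14. Ccr7 was high in every CD4 SP library of both genotypes, at 465, 991 and 667 CPM in CKO and 399, 552 and 300 CPM in wild type. The part of the sorted cells' purity in these values was not tested.

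**Figure D4:**
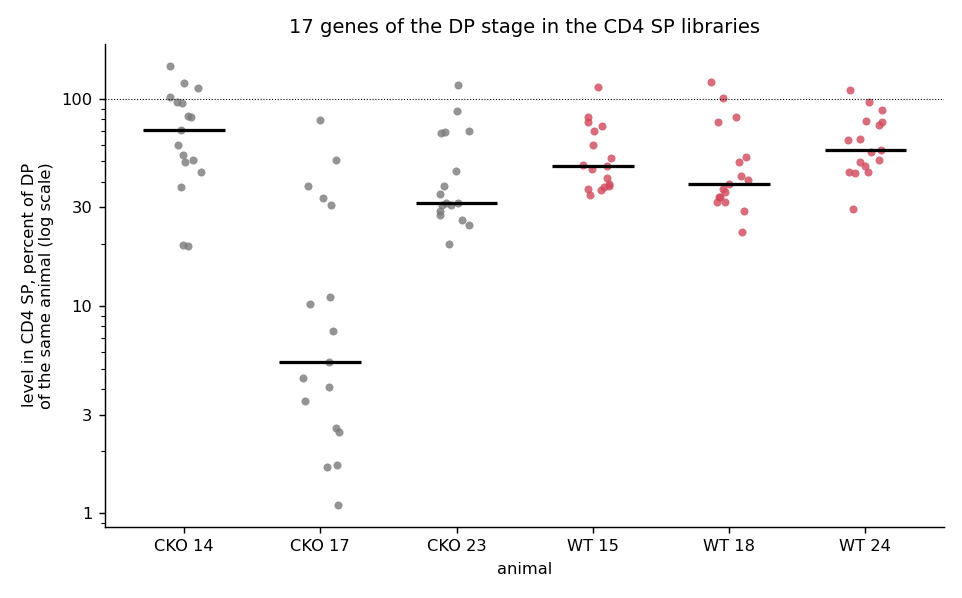
Level in CD4 SP as a percent of DP in the same animal (log axis), scaled over 12 libraries, for the 17 genes of the DP stage; each point is a gene, grey in CKO animals and red in wild type animals, the bar is the median and the dotted line marks 100%. Wild type medians run from 38.7% to 56.6%, and CKO medians from 5.40% in animal 17 to 70.9% in animal 14.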

How the data were processed

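Libraries of sorted thymocytes were made from poly(A) RNA; the kit keeps strand information, per the labels' protocols. The values are raw read counts per gene symbol, deposited by the authors in 1 table of 12 libraries; per the submitters' processing notes the tools were HISAT2 and HTSeq and the build GRCm38, while no version, gene annotation or strandedness setting is given in the sources used, so antisense partners and near-identical paralogs are uncertain. The other 2 tables of the series were not used.

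The 6 wild type libraries were fitted with edgeR 4.0.16 in R 4.3.3: filterByExpr defaults (minimum count 10, total 15), TMM scaling, the animal as a block plus the population, two-sided quasi-likelihood test, Benjamini-Hochberg over all genes tested at 0.05. Each SE was taken as the absolute log2 change over the root of F. The same fit was run on the CKO libraries, and their difference over 12 libraries. No gene set test was run. Both populations came from the same animals, per the labels; deviations from group means correlated at 0.215, 0.107 and 0.0971 within animals 15, 18 and 24, and at -0.115 to 0.00806 between animals. Replicates differed by more than sampling noise. In the shallowest library 10 counts equal 0.767 CPM, and counts cover counting error only.

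Members and gene lists were chosen with earlier results of these data known, so list counts are descriptions. Named are a fixed set of marker genes, the 12 genes with the largest change per direction (at least 5 CPM in the higher population, same sign in 3 animals, unnamed models and receptor segments left out) and the 4 members with smallest p per list; Isg15, Oas3, Ifit1, Rrm1 and Chaf1a were added for their promoter windows after their values were seen. The fits were tested on simulated data. Alternatives were no block, DESeq2 1.42.0 and its size factors, limma 3.58.1 voom, no filter, 5 CPM in 3 libraries, all 12 libraries, and each animal left out. Sequences are from RefSeq (GRCm38.p6). Some members of the lists are counted but not reported here by name.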

Additional observations from a re-analysis of the deposited data

How the results depend on the processing

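Without the replicate block 2562 genes were higher and 2144 lower in wild type CD4 SP, and the block changed the call of 1 of 150 named genes (Psmb11, adjusted p = 0.0499 without it). Over the other scalings, filters and tools with all 6 libraries, 2249 to 2746 genes were higher and 2018 to 2508 lower; with an animal left out, 1988 to 2564 were higher and 1656 to 2368 lower. Only the fit over all 12 libraries moved these counts by over 1.5 times, to 665 and 96, of which 755 genes were called in the same direction with 6 libraries, and it ended 63 calls among the 150 named genes. In CKO mice 552 genes were higher and 85 lower with no replicate block, 710 and 403 by DESeq2, and with an animal left out 144 to 1142 higher (lowest without CKO 17, highest without CKO 14) and 7 to 690 lower, with 35 lower without CKO 23; the cause was not tested. The sign turned for Prmt5, which was not called under any of these settings and ran from -0.111 to 0.0342 with an animal left out. Col1a1 was called lower without animal 24 (adjusted p = 0.0318), and Cd68 (0.174) and Tyrobp (0.0628) lost their calls without animal 15. The filter of 5 CPM left few members in lists of rare cell types.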
